A study of Mus musculus with 12 samples.

Results

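The response of the mouse heart to weekly prednisone that was common to sham-operated and infarcted animals was measured by comparing the 6 prednisone libraries with the 6 vehicle libraries, with surgery held as a covariate. All 12 of the 12 libraries of the series entered, and the genes reported are those among 13158 tested that moved the same way after both operations. Myocardium came from male C57BL/6 wild-type mice, which had undergone either a sham operation or myocardial infarction (MI) surgery. Each surgery group was divided into vehicle and prednisone, a synthetic glucocorticoid that acts through the glucocorticoid receptor, with 3 mice in each of the 4 groups. Prednisone was injected intraperitoneally once a week for 6 weeks at 1 mg/kg, at lights-on, and the first injection was 2 weeks after surgery. Hearts were taken 24 h after the final dose, which for an injection at lights-on is nominally lights-on again. The labels give the age as about 10 weeks in one field and about 16 weeks in another. They record no actual clock hour of collection, sequencing batch or region of the ventricle for each mouse.

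The circadian clock is a transcriptional loop present in most cells, heart muscle included. The activators ARNTL (BMAL1) and CLOCK or NPAS2 bind E-box sequences and drive the period and cryptochrome repressors, the nuclear receptors REV-ERB alpha and beta (Nr1d1 and Nr1d2) and the bZIP factor Dbp. The REV-ERB proteins in turn repress Arntl and Nfil3 through a response element that they share with the activating ROR receptors, so the Dbp group and the Arntl group peak at opposite times of day. Glucocorticoids are among the signals known to set the phase of clocks in peripheral tissues.

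Values are TPM, the length-adjusted share of a transcript in its library, so the depth is unknown and the precision of every value rests on the spread between 3 mice. Between 11690 and 14307 genes reached 1 TPM in a library, and mitochondrially encoded RNA took 21.6 to 42.0% of a library. MI vehicle replicate 3 stood apart, with the highest gene number and a median-ratio size factor of 1.65 against 0.871 to 1.14 in the other 11. Cardiomyocyte markers summed to between 24808 and 37481 TPM in every library. In such bulk tissue, fewer cells of a type and less RNA per cell cannot be told apart. P-values measure the spread between these mice, and the labels do not say whether the libraries were prepared together.

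After both operations, hearts from prednisone-treated mice held less RNA of 12 of the 13 clock genes of the Dbp group and more of their antiphase counterpart Nfil3. These genes vary with time of day, and the labels give no actual hour of collection per mouse. A difference in hour between the treatments was therefore not tested and cannot be told apart from an effect of prednisone. Of 13158 genes, 23 were called at an adjusted p under 0.05 with surgery as covariate (limma, Benjamini-Hochberg adjustment), which is 0.175% of those tested. The 19 lower genes were 0.144% of all genes and the 4 higher genes 0.0304%, and 1934 genes (14.7%) had an unadjusted p under 0.05. Each of the 23 had the same sign with an unadjusted p under 0.05 in the sham mice and in the MI mice separately. Those are the libraries that gave the call, so this agreement is not independent of it. Of the 23, 16 belonged to the lists of clock genes and clock outputs, which held 13, 7 and 24 of the genes tested. The lists were chosen with earlier results of these data known, so this overlap is not independent evidence. Among the other 7 were Cited4, Vegfa, Pim3, Rhobtb1, Lefty1 and Gm20431.

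In each of the 23 genes the 3 prednisone mice lay wholly above or wholly below the 3 vehicle mice in both surgeries. This describes the same values that gave the calls. Such separation in the same direction was seen in 217 genes (1.65%), 137 of them lower (1.04%) and 80 higher (0.608%), and in 373 (2.83%) after median-ratio rescaling. Separation in opposite directions was seen in 1049 genes (7.97%). The median of all genes stood at -0.17 on the log2(TPM + 1) scale in the comparison with surgery as covariate, at 0.07 in sham and at -0.41 in MI. Each of the 19 falls was larger than that shift, the smallest being that of Cry2 at -0.70. Without MI vehicle replicate 3 the count was 27, 9 higher and 18 lower, and 18 of the 23 kept their call.

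Dbp, which encodes a PAR-bZIP activator of clock output genes, fell further than any other gene of the 23. It is on chromosome 7 (45705088 to 45710203, GRCm38). Sham vehicle hearts held 75.2, 82.8 and 86.5 TPM, and sham prednisone hearts held 7.73, 6.61 and 5.44 TPM. In the MI groups the values were 70.2, 72.1 and 81.9 TPM under vehicle and 5.93, 5.95 and 4.84 TPM under prednisone. The 6 prednisone hearts were all under 8 TPM and the 6 vehicle hearts all at 70.2 TPM or more, and within each treatment the surgeries overlapped. The log2 change was -3.49 (SE 0.10, limma adjusted p = 9.38e-10), being -3.45 in sham and -3.53 in MI.

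The related PAR-bZIP genes fell less. Hlf (chromosome 11, 90336536 to 90390895) measured 7.30, 10.97 and 8.39 TPM in sham vehicle against 3.00, 3.49 and 4.23 TPM in sham prednisone. In MI it measured 9.23, 5.95 and 9.56 TPM under vehicle against 1.83, 1.80 and 1.95 TPM under prednisone. The log2 change of Hlf was -1.39 (SE 0.16, limma adjusted p = 0.00187), and the 3 MI prednisone hearts were the lowest of the 12. Tef (chromosome 15, 81802421 to 81826863) fell from 58.9 ± 6.77 to 30.8 ± 2.08 TPM in sham and from 48.9 ± 3.31 to 26.2 ± 3.08 TPM in MI (SD, n = 3 each). Its log2 changes in the 2 surgeries were close, -0.91 and -0.88, and the lowest vehicle heart held 46.7 TPM against 33.1 TPM in the highest prednisone heart.

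**Figure D1:**
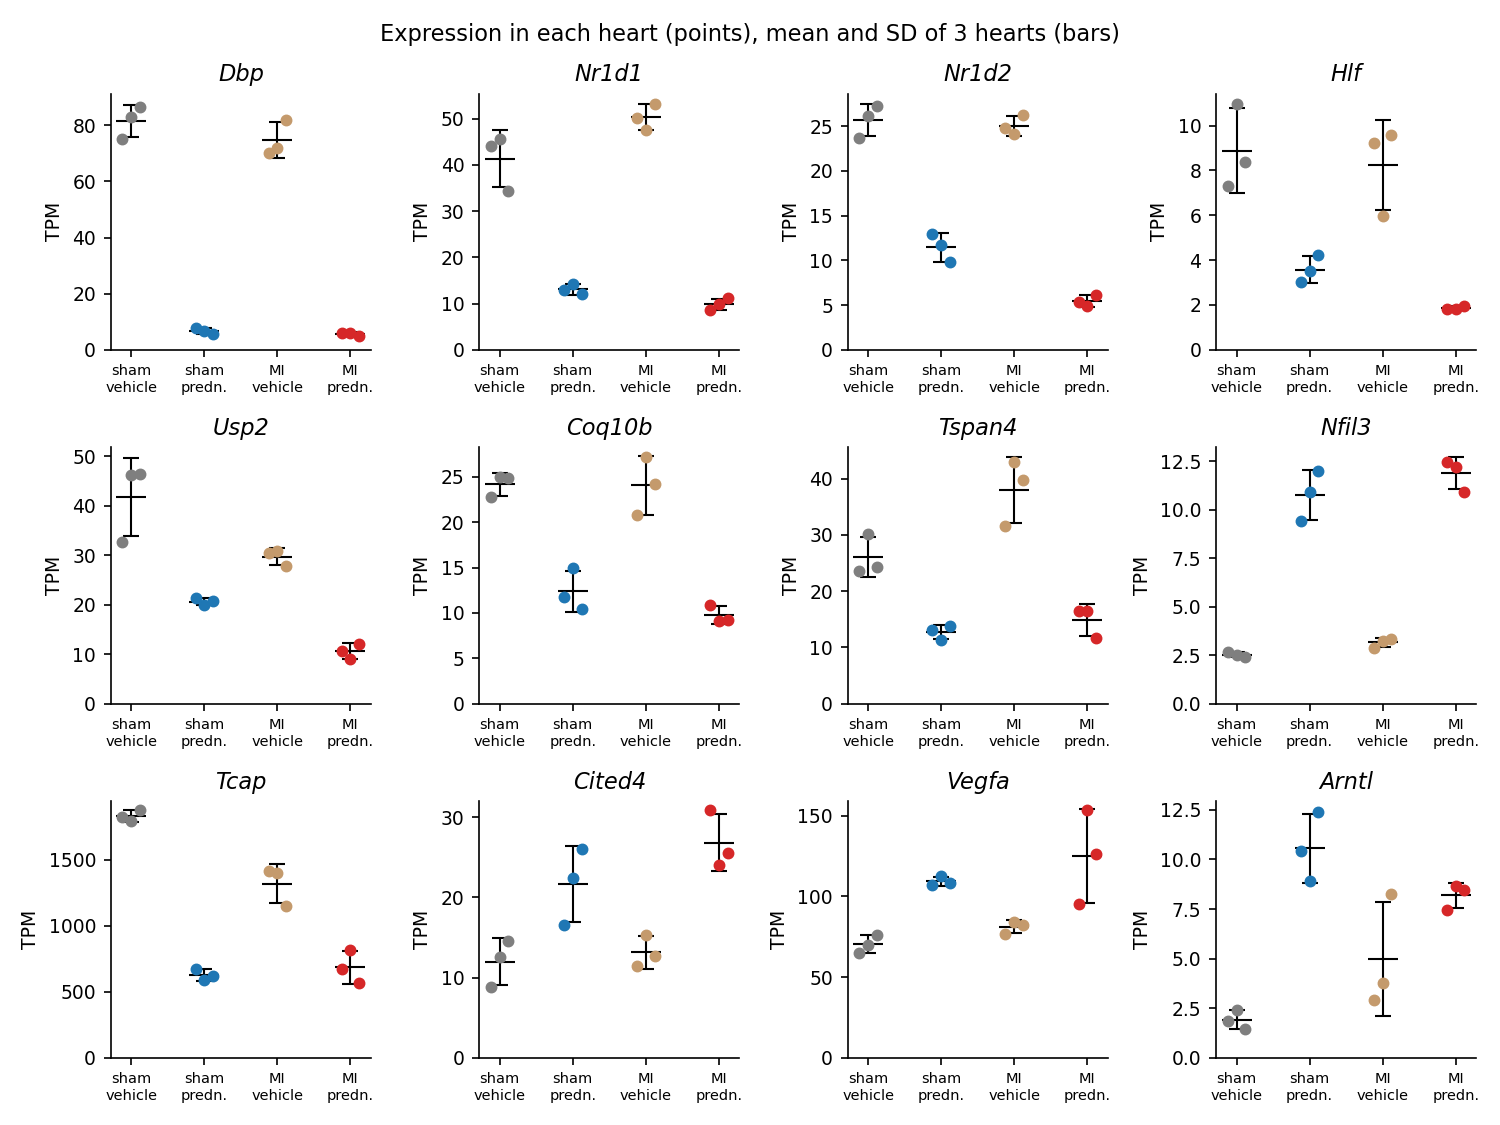
TPM of 12 genes in each of the 12 hearts, by group (points are hearts, bars the mean and SD of 3 hearts, vertical axes linear from 0 and scaled per gene). For Dbp the 6 prednisone hearts lie between 4.84 and 7.73 TPM and the 6 vehicle hearts between 70.2 and 86.5 TPM, while for Arntl the MI vehicle hearts overlap the MI prednisone hearts.

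Both REV-ERB genes, which encode heme-binding repressors of Arntl and Nfil3, were lower after prednisone. Nr1d1 (chromosome 11, 98767932 to 98775333) measured 44.1, 45.6 and 34.3 TPM in sham vehicle and 12.9, 14.2 and 12.04 TPM in sham prednisone. The MI vehicle hearts held 50.1, 47.6 and 53.2 TPM and the MI prednisone hearts 8.61, 9.80 and 11.1 TPM. All vehicle hearts were thus above 34 TPM and all prednisone hearts under 15 TPM, a log2 change of -1.92 with a standard error (SE) of 0.14 (limma adjusted p = 2.22e-05). Nr1d2 (chromosome 14, 18204054 to 18239127) went from 23.7, 26.1 and 27.3 TPM to 12.9, 11.7 and 9.76 TPM in sham. In MI it went from 24.7, 24.1 and 26.2 TPM to 5.34, 4.88 and 6.13 TPM.

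For both, the fall was larger in MI, and for Nr1d1 the MI vehicle hearts also stood above the sham vehicle hearts. The log2 change of Nr1d2 was -1.10 in sham and -2.02 in MI, and the difference was -0.91 (limma interaction adjusted p = 0.00997). For Nr1d1 the difference was -0.67 (limma interaction adjusted p = 0.032). Neither difference passed after median-ratio rescaling (limma adjusted p = 0.305 for Nr1d2 and 0.736 for Nr1d1), which takes out the lower median of all genes in MI.

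The period and cryptochrome genes encode the repressors that close the loop. Per1 (chromosome 11, 69095217 to 69109960) fell by 1.39 on the log2 scale (SE 0.25, limma adjusted p = 0.0495), with 11.3, 16.6 and 15.8 TPM in sham vehicle against 8.33, 8.74 and 2.84 TPM in sham prednisone. MI vehicle hearts held 14.6, 18.3 and 21.0 TPM and MI prednisone hearts 3.23, 5.96 and 6.22 TPM. The groups did not overlap, but the sham prednisone mice were spread widely and the call was lost when any of 10 of the 12 libraries was left out. Per2 and Per3 changed by -0.89 (limma adjusted p = 0.02) and -1.10 (limma adjusted p = 0.0108) at low levels, no heart exceeding 2.87 TPM for Per2 or 4.71 TPM for Per3. Cry2 fell by 0.70 (limma adjusted p = 0.0358), from 8.83 ± 0.943 to 5.73 ± 0.555 TPM in sham and from 8.99 ± 1.28 to 4.48 ± 0.382 TPM in MI. With 1 library left out in turn, Per3 lost its call only without sham vehicle replicate 2, whereas Per2 lost it for 6 and Cry2 for 9 of the 12 libraries. After the transcript-length correction none of the 3 was called (limma adjusted p = 0.165 for Per2, 0.149 for Per3 and 0.0941 for Cry2). Their changes in MI were then -0.14, -0.21 and -0.27 (limma adjusted p = 0.57, 0.481 and 0.128).

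The remaining members of the Dbp group are regulators around the loop. Usp2, a clock-controlled deubiquitinase (chromosome 9, 44067021 to 44095627), measured 32.8, 46.3 and 46.5 TPM in sham vehicle and 21.4, 19.9 and 20.7 TPM in sham prednisone. It measured 30.5, 30.9 and 27.8 TPM in MI vehicle and 10.7, 9.06 and 12.1 TPM in MI prednisone, a log2 change of -1.19 with an SE of 0.13 (limma adjusted p = 0.000801). Ciart, which encodes the repressor CHRONO, changed by -1.23 (limma adjusted p = 0.0367), with sham vehicle hearts spread from 5.70 to 13.5 TPM and prednisone hearts of either surgery between 2.02 and 3.82 TPM. Bhlhe41 (DEC2), an E-box repressor, changed by -1.29 (limma adjusted p = 0.021), from 8.004 ± 1.32 to 4.30 ± 0.180 TPM in sham and from 10.8 ± 0.952 to 2.39 ± 0.653 TPM in MI. Its paralog Bhlhe40 (DEC1) was the single member of the 13 that was not called (-0.95, limma adjusted p = 0.159), and its sham groups overlapped, at 15.6 to 22.2 TPM under vehicle and 9.19 to 18.3 TPM under prednisone. Leaving out 1 library ended the call of Ciart for 9 libraries and that of Bhlhe41 for 5.

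The count for the Dbp group was therefore 12 of 13 called lower and none higher, against 0.144% of all genes called lower. The median of the 13 was -1.23 beside -0.17 for all genes, and -1.10 in sham and -1.41 in MI. All 13 were called lower within MI, where 34.9% of all genes were, and 6 were called lower within sham, where 0.114% of all genes were called in either direction. The 12 became 6 without sham vehicle replicate 2, 7 without MI prednisone replicate 1 or 3, and 8 without MI vehicle replicate 2. Leaving out any other library gave 9 to 11, with 10 without MI vehicle replicate 3. The count was 10 after median-ratio rescaling, 8 with no filter or with the replicate block, 7 with the transcript-length correction and 6 with that correction and the block. Dbp, Hlf, Nr1d1, Nr1d2 and Usp2 were called in all of these.

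Promoter windows show which of these genes carry the binding letters of the clock factors close to their start. RefSeq windows (GRCm38.p6) from 250 bases before to 50 after a start were present for 18 of the 23 genes. The E-box CACGTG, the same on both strands, was in 7 of the 15 lower genes with a window (46.7%), namely Bhlhe41, Ciart, Coq10b, Per1, Rhobtb1, Tef and Tspan4. It was in 11.7% of the 9619 tested genes with a window and in 7.15% of all 32851 windows. The D-box, TTATGTAA or TTACGTAA on either strand, was in Coq10b and Per3 (13.3% of the 15) and in 0.873% of tested genes. The ROR and REV-ERB element TAGGTCA, searched on both strands, was in Nfil3, 1 of the 3 higher genes with a window, and in 2.24% of tested genes. The consensus glucocorticoid response element, on either strand, was in none of the 18 and in 0.416% of tested genes. The windows of Dbp, Nr1d1, Nr1d2, Hlf and Usp2 held none of these letters, and a match or its lack is a description of this window only.

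The windows of 4 genes that fell and 2 of the opposite phase are printed 5′ to 3′ on the gene's strand because they carry an E-box or the REV-ERB element, whose letters are in capitals. Per1, Tspan4 and Arntl have 2 RefSeq starts each and the window of 1 of them is printed, which for Per1 and Tspan4 lies inside the gene span given here. The E-box begins 166 bases before that start in Per1 and 51 in Tspan4. It begins 153 bases before the start of Bhlhe41, and Ciart has 3, at 116, 58 and 44 bases. The element begins 12 bases before the start of Nfil3, as its reverse complement TGACCTA, and 30 bases after the printed start of Arntl.
Per1, chr11:69098699-69098998, plus strand: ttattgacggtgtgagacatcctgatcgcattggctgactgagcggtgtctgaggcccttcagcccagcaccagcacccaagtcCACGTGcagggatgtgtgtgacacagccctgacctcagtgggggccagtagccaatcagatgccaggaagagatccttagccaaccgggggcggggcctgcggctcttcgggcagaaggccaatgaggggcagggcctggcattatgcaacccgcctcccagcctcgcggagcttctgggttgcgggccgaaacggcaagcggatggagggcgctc
Bhlhe41, chr6:145865371-145865670, minus strand: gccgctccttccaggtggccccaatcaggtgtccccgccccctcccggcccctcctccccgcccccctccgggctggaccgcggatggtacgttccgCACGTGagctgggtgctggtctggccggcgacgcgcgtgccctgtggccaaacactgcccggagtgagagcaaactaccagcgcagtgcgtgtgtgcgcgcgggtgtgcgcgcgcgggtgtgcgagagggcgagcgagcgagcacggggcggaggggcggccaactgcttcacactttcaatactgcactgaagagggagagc
Ciart, chr3:95882179-95882478, minus strand: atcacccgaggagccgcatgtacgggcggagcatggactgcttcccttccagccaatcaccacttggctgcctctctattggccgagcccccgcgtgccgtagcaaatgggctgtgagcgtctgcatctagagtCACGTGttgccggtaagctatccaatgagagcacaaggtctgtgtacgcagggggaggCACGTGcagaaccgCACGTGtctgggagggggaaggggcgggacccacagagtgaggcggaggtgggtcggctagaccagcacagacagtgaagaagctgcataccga
Tspan4, chr7:141476130-141476429, plus strand: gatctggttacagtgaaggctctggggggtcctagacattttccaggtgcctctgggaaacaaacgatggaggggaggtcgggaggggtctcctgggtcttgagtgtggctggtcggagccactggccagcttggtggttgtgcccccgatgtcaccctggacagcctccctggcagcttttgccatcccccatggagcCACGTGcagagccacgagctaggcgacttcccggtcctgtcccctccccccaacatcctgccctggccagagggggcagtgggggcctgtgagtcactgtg
Nfil3, chr13:52980990-52981289, minus strand: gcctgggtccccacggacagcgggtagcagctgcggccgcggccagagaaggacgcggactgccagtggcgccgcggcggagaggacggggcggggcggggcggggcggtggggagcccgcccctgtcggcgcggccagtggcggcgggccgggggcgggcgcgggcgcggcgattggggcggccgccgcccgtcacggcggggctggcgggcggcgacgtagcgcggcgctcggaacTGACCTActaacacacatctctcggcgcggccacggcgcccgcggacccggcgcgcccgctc
Arntl, chr7:113207261-113207560, plus strand: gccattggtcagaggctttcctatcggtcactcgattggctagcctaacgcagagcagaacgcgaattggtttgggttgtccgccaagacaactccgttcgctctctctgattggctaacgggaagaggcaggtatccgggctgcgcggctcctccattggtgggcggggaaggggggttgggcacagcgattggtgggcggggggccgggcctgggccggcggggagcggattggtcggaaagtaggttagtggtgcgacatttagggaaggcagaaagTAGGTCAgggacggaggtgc

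Nfil3 (E4BP4) encodes a bZIP repressor that occupies the same D-box sites as DBP, and it rose in both surgeries. It is on chromosome 13 (52967209 to 52981073). Sham hearts held 2.64, 2.53 and 2.39 TPM under vehicle and 9.42, 10.9 and 11.98 TPM under prednisone. Infarcted hearts held 2.90, 3.24 and 3.36 TPM under vehicle and 12.5, 12.2 and 10.9 TPM under prednisone. The 6 vehicle hearts all lay under 3.4 TPM and the 6 prednisone hearts over 9.4 TPM. The log2 change was 1.68 (SE 0.10, limma adjusted p = 4.56e-06), being 1.74 in sham and 1.63 in MI.

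The other 6 activator-phase genes were not called, Nfil3 being the 1 of 7 that was. Arntl (chromosome 7, 113207465 to 113314126) held 1.87, 2.40 and 1.46 TPM in sham vehicle and 10.4, 8.90 and 12.4 TPM in sham prednisone. Its MI vehicle values were 2.90, 3.75 and 8.26 TPM, the last in replicate 3, and those of MI prednisone were 7.47, 8.65 and 8.45 TPM. The sham groups were far apart while the MI groups overlapped through that replicate. The change was 1.36 (SE 0.26, limma adjusted p = 0.0725), with 1.99 in sham and 0.72 in MI and a difference of -1.27 (limma interaction adjusted p = 0.0398). After median-ratio rescaling Arntl was called (1.53, limma adjusted p = 0.00182), as was its partner homolog Npas2 (0.90, limma adjusted p = 0.0106), which had not been in the TPM values (0.79, limma adjusted p = 0.108).

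Clock, the other partner of ARNTL, went in opposite directions after the 2 operations in the TPM values. Sham hearts held 4.76, 5.65 and 4.59 TPM under vehicle and 7.67, 7.84 and 7.67 TPM under prednisone. MI hearts held 6.24, 6.43 and 7.32 TPM under vehicle and 3.08, 2.90 and 4.18 TPM under prednisone. The rise of 0.54 in sham was not called (limma adjusted p = 0.698), while the fall of -0.81 in MI was (limma adjusted p = 0.00214). Their difference was -1.36 (limma interaction adjusted p = 0.00526). It passed once the libraries were rescaled by median ratios (limma adjusted p = 0.0263) but not after a correction for transcript length (limma adjusted p = 0.098). The MI change was -0.43 after the rescaling (limma adjusted p = 0.0417) and -0.11 after the length correction (limma adjusted p = 0.506). The changes of Cry1 and Rora were 0.40 and -0.43, with a limma adjusted p of 0.422 and 0.338. MI vehicle replicate 3 was also the highest of the 12 for Cry1 (9.96 TPM). Without that library Arntl and Cry1 were called higher, at 1.59 and 0.70 (limma adjusted p = 0.00206 and 0.027), while Npas2 was at 0.83 (limma adjusted p = 0.0787) and Clock at -0.03 (limma adjusted p = 0.949).

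**Figure D2:**
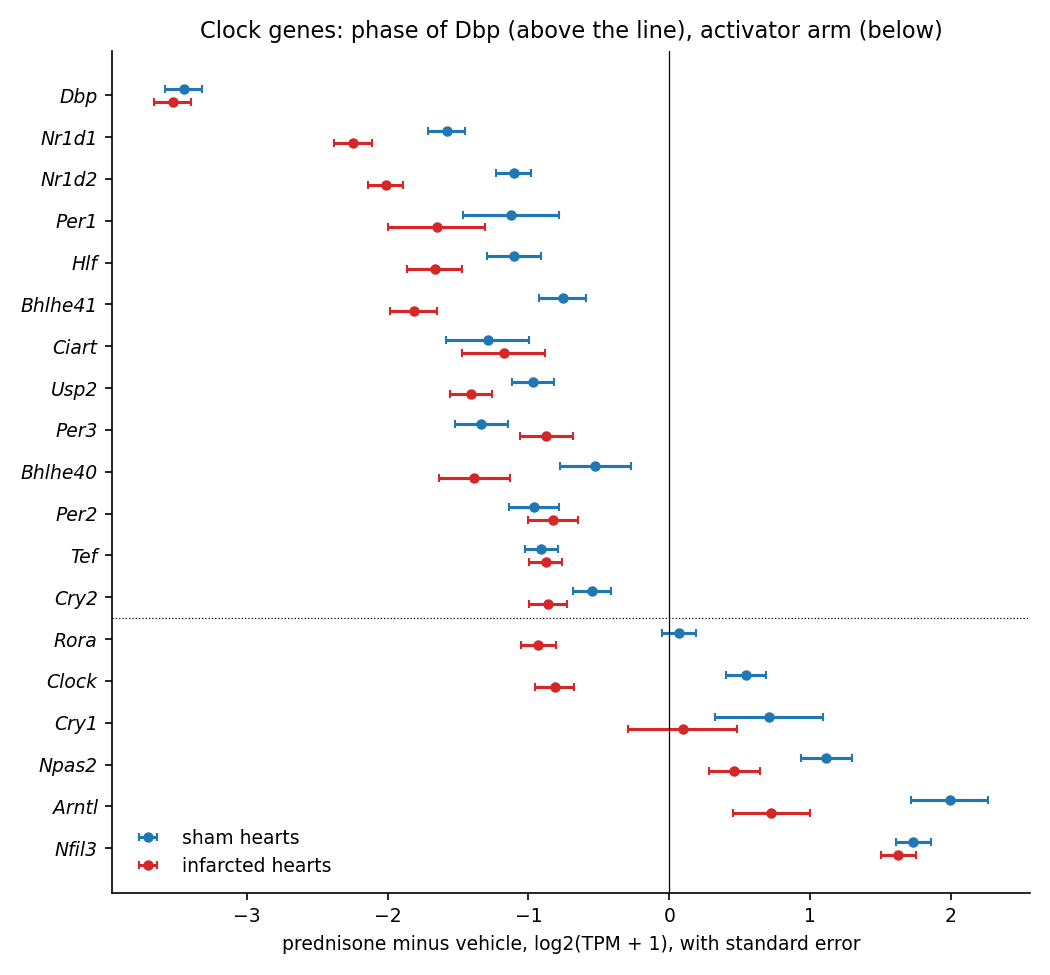
Prednisone minus vehicle on the log2(TPM + 1) scale (horizontal axis) with its standard error for 19 genes of the clock lists (rows), in sham (blue) and infarcted (red) hearts. The 13 genes above the dotted line are below 0 in both surgeries, and below the line Nfil3 lies at 1.74 and 1.63 while Clock and Rora differ in sign between the surgeries.

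Of 24 tested genes listed as clock outputs in the heart, 3 were called, and all 3 were lower, against 0.144% of all genes. Coq10b (chromosome 1, 55052770 to 55072702), a coenzyme Q binding protein of the mitochondrion, held 22.7, 25.0 and 24.8 TPM in sham vehicle and 11.8, 14.9 and 10.5 TPM in sham prednisone. In MI it held 20.7, 27.2 and 24.2 TPM under vehicle and 10.9, 9.08 and 9.24 TPM under prednisone, a log2 change of -1.07 with an SE of 0.12 (limma adjusted p = 0.000968). Tspan4 (chromosome 7, 141475240 to 141493427), a tetraspanin of the cell membrane, held 23.7, 30.2 and 24.4 TPM and then 13.2, 11.3 and 13.8 TPM in sham. The MI values were 31.5, 42.9 and 39.7 TPM under vehicle and 16.5, 16.5 and 11.6 TPM under prednisone, a log2 change of -1.14 with an SE of 0.13 (limma adjusted p = 0.00147). In these genes the prednisone hearts of the 2 surgeries overlapped and lay below every vehicle heart.

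Tcap (chromosome 11, 98383811 to 98384953) encodes telethonin, which caps titin at the Z-disc, and was the most abundant gene of the 19 that fell. It held 1825, 1789 and 1874 TPM in sham vehicle and 673, 587 and 621 TPM in sham prednisone. In MI it held 1410.5, 1395 and 1149.6 TPM under vehicle and 672, 813 and 565 TPM under prednisone. The MI vehicle level was below that of sham vehicle, and the prednisone hearts of the 2 surgeries overlapped. The log2 change was -1.25 (SE 0.13, limma adjusted p = 0.0007), larger in sham (-1.55) than in MI (-0.96, limma interaction adjusted p = 0.0471). After median-ratio rescaling the change was -1.07 and the adjusted p 0.0982. The median of the 24 output genes was -0.35, with 15 called lower in MI, where 34.9% of all genes were, and 2 in sham, where 0.114% of all genes were called.

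The called rises outside the clock were small. Cited4, a transcriptional coregulator associated with exercise-induced heart growth, lies on chromosome 4 (120666572 to 120667820) and held 8.81, 12.6 and 14.5 TPM in sham vehicle and 16.6, 22.4 and 26.0 TPM in sham prednisone. The MI hearts held 11.4, 15.4 and 12.7 TPM under vehicle and 30.8, 24.0 and 25.6 TPM under prednisone, a log2 change of 0.89 with an SE of 0.15 (limma adjusted p = 0.0358). Vegfa, the main angiogenic growth factor (chromosome 17, 46016993 to 46032369), held 65.0, 69.97 and 76.1 TPM in sham vehicle and 107, 113 and 108 TPM in sham prednisone. In MI it went from 76.5, 84.2 and 82.4 TPM to 94.9, 154 and 126 TPM, a log2 change of 0.61 with an SE of 0.11 (limma adjusted p = 0.0494). The groups were apart in both surgeries for these genes, yet leaving out 1 library ended the call of Cited4 for 9 of 12 libraries and that of Vegfa for 11.

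Among the falls outside the clock, Pim3, a serine/threonine kinase, changed by -0.71 (limma adjusted p = 0.0243), from 38.5 ± 5.44 to 24.3 ± 2.86 TPM in sham and from 31.5 ± 5.10 to 17.8 ± 0.975 TPM in MI. Rhobtb1, a member of an atypical GTPase family (chromosome 10, 69151434 to 69291791), changed by -1.003 (limma adjusted p = 0.0358), from 39.9 ± 14.05 to 22.04 ± 2.92 TPM in sham and from 28.4 ± 3.36 to 11.6 ± 1.75 TPM in MI. Lefty1, a secreted Nodal antagonist, changed by -0.90 (limma adjusted p = 0.0495) and stayed between 0.623 and 3.91 TPM in all hearts. The predicted gene Gm20431, which changed by -1.53 (limma adjusted p = 0.0495), was at 2.04 to 4.94 TPM in vehicle hearts and is listed at 0 in the 3 MI prednisone libraries. Leaving out 1 library ended the call of Pim3 for 8, Rhobtb1 for 9, Gm20431 for 11 and Lefty1 for each of the 12. Pim3, Lefty1 and Gm20431 are named after their values were seen. Just outside the threshold stood Gm20594 (limma adjusted p = 0.0529), Ucp3 (0.0602) and Tmem171 (0.0672).

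How firmly each call stood was read from 23 other settings: rescaling, filters, pseudocount, the model and each library left out. Of the 23 genes 8 were called under each setting, namely Dbp, Nfil3, Nr1d1, Nr1d2, Hlf, Usp2, Coq10b and Tspan4, and none of the 23 changed sign under any. Tcap lost its call once and Tef in 2 settings. The number of calls itself moved by more than 1.5 times when a single library was left out, to 10 without sham vehicle replicate 2, 15 without sham prednisone replicate 3, and 13 and 15 without MI vehicle replicates 1 and 2. It was 12, 13 and 12 without MI prednisone replicates 1, 2 and 3.

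Rescaling altered the balance of rises and falls. Median ratios used as size factors gave 38 calls, 17 of them rises and 21 falls in place of 4 and 19, and 17 of the 23 were among them. With the transcript-length correction 37 were called, 21 higher and 16 lower, among them 15 of the 22 genes of the 23 that had a length. Tcap, Pim3, Ciart, Rhobtb1, Lefty1 and Per1 missed the threshold after rescaling.

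**Figure D3:**
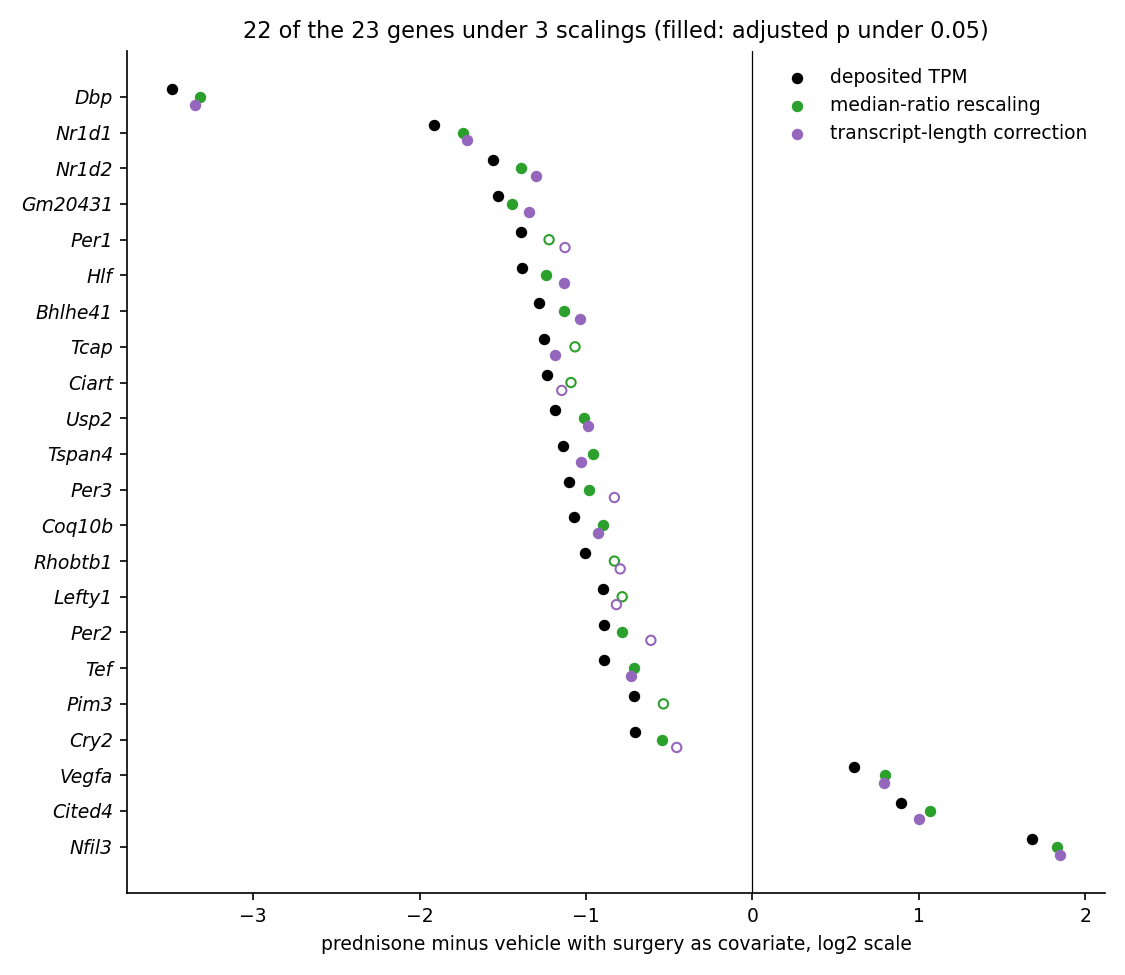
Log2 change with surgery as covariate (horizontal axis) for 22 of the 23 genes (rows), from the deposited TPM (black), after median-ratio rescaling (green) and after transcript-length correction (purple). Filled points have an adjusted p under 0.05, and none of those shown changes sign, with Dbp between -3.49 and -3.32.

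The same data give far more calls if the effects in sham and MI are averaged in a fit with a mean for each group. That contrast called 825 genes, 92 higher and 733 lower, since the model with surgery as covariate leaves the difference between surgeries in its residual and the 4-group model takes it out. Of the 825, 401 had opposite signs in the 2 surgeries and 342 had the same sign without an unadjusted p under 0.05 in both. The remaining 82 had the same sign and passed in both, 29 higher and 53 lower, and the 23 are among the 825.

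Across all 13158 genes the log2 changes in sham and in MI were weakly correlated, r = 0.136 (Spearman 0.00671), given as a description because all genes come from the same 12 libraries. At an unadjusted p under 0.05 in both surgeries there were 259 genes, of which 86 moved the same way, 56 lower and 30 higher. The other 173 moved in opposite ways, 172 of them higher in sham and lower in MI. After median-ratio rescaling the balance turned, with 166 of 281 genes moving the same way, and with the length correction it was 152 of 213.

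**Figure D4:**
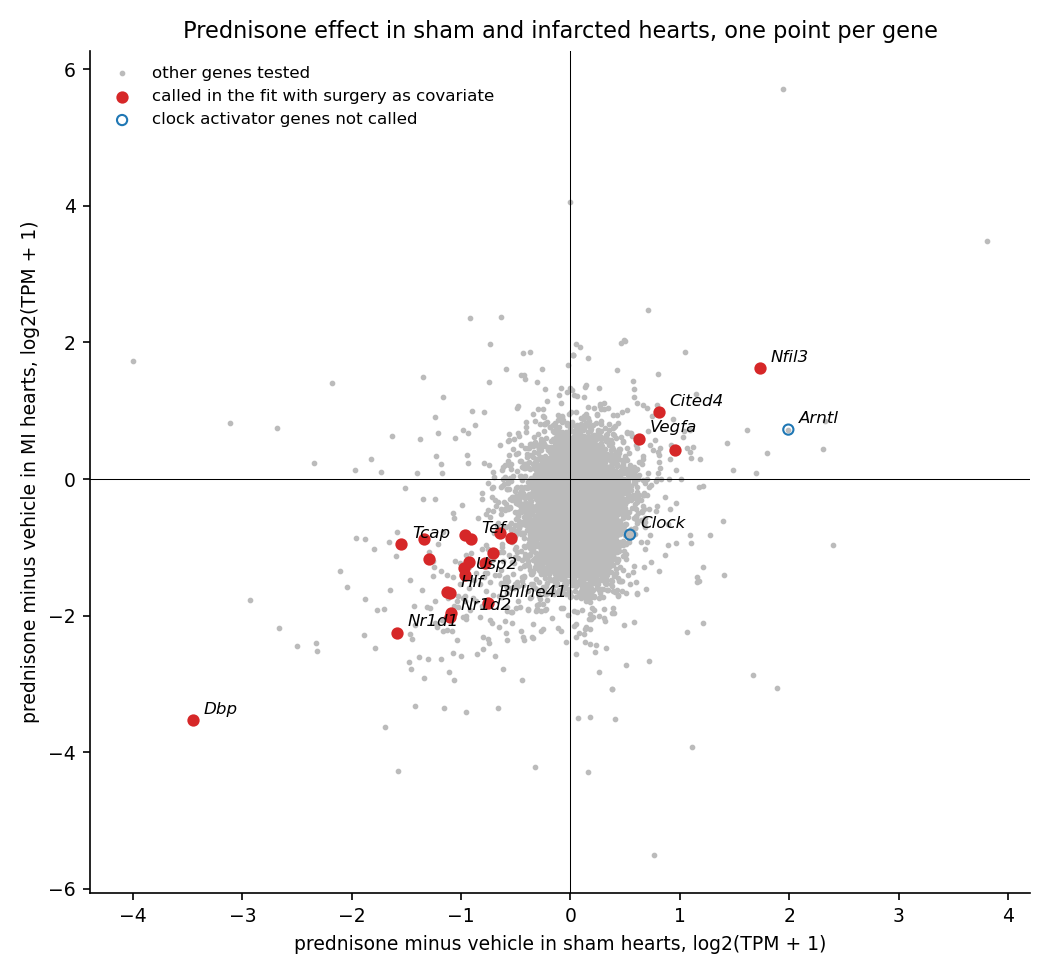
Prednisone minus vehicle in sham (horizontal) and in MI (vertical) hearts on the log2(TPM + 1) scale, 1 point per gene tested. The 23 called genes (red) lie in the lower left and upper right quadrants, Dbp at -3.45 and -3.53, while most of the grey cloud lies below 0 on the vertical axis.

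The genes called in sham were also read in the MI mice, whose values did not enter the sham difference. The MI mice did enter the estimate of the spread behind both tests. The sham calls are therefore not independent of them, and the shares of all genes are given as a description. Within sham 15 genes were called (0.114%) and 469 (3.56%) had an unadjusted p under 0.05. The 8 lower genes were Dbp, Nr1d1, Nr1d2, Per3, Tef, Usp2, Coq10b and Tcap, and all 8 were also called lower in MI, where 34.9% of all genes were. The 7 higher genes included Nfil3, Arntl, Spon2, Tmem171, Adam19 and Ypel2. Of these 7, 4 were also called higher in MI, Nfil3, Spon2 and Tmem171 among them, against 2.5% of all genes called higher there. The MI changes of the 3 that were not were 0.72 for Arntl, 0.30 for Adam19 and 0.40 for Ypel2, with limma adjusted p values of 0.0567, 0.126 and 0.0724. Thus 12 of 15 were called in MI in the same direction. The 12 became 4 without sham vehicle replicate 2 or 3, 6 without sham prednisone replicate 1 or 2, and 5 without sham prednisone replicate 3, as fewer genes were then called in sham.

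In the wider set of genes that passed unadjusted in sham, how many kept their sign in MI turned on the scaling. Of the 469, 176 had the same sign in MI in the TPM values, 341 of 588 had it after median-ratio rescaling and 337 of 509 after length correction. The MI comparison called 4917 genes (37.4%), 4588 lower (34.9%) and 329 higher (2.5%), and 6465 (49.1%) had an unadjusted p under 0.05. The difference between the surgeries was called in 2797 genes (21.3%), 4 of the 23 among them (Nr1d1, Nr1d2, Bhlhe41 and Tcap).

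The list of 27 tested glucocorticoid receptor targets held no call with surgery as covariate by limma. Per1, itself a known receptor target, stands in the clock list instead. In the list of 27, 9 genes had an unadjusted p under 0.05, as did 14.7% of all genes, and the list median was -0.33 beside -0.17 for all genes. In MI 13 were called lower, against 34.9% of all genes, and none higher, and in sham none was called. Metallothionein Mt2 had the smallest p of the list, with 21.7, 28.1 and 22.8 TPM in sham vehicle and 14.8, 15.5 and 14.9 TPM in sham prednisone. Its MI hearts held 45.1, 72.1 and 69.1 TPM under vehicle and 26.1, 23.5 and 13.8 TPM under prednisone, a change of -1.08 (limma adjusted p = 0.0683). After median-ratio rescaling Mt2 was the 1 target called, at -0.90 (limma adjusted p = 0.0302). Klf9, a direct receptor target that is also clock-controlled, overlapped between the sham groups, at 30.0 to 38.2 and 25.0 to 33.3 TPM. It was far lower in MI prednisone, at 7.11 to 16.1 TPM against 35.2 to 39.9 TPM, a difference of -1.57 between the surgeries (limma interaction adjusted p = 0.0125). That difference was -1.04 with median-ratio rescaling and did not pass (limma interaction adjusted p = 0.108), and Klf9 had no length for the length correction. The 13 receptors and cofactors also had no call (3 unadjusted), and 6 of them were called lower in MI, against the same 34.9% of all genes.

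The structural and metabolic lists held few calls across surgeries. The unadjusted p was under 0.05 for 14.7% of all genes, and within MI 34.9% were called lower and 2.5% higher. Of 40 collagen and matrix genes none was called with surgery as covariate (16 unadjusted), while 33 were called lower in MI and the list median was 0.12 in sham and -1.22 in MI. Of 76 nuclear-encoded respiratory chain genes none was called (51 unadjusted), while 56 were called higher and 2 lower in MI, with medians of 0.07 in sham and 0.45 in MI. Among 26 sarcomere and calcium-handling genes Tcap was the single call, with 9 unadjusted, and 5 were called higher and 3 lower in MI. Fatty acid oxidation (24 genes, 2 unadjusted), pyruvate, citrate cycle and NAD (34 genes, 5 unadjusted) and glycolysis (20 genes, 7 unadjusted) had no call. Within MI, 6 fatty acid oxidation genes were called, all lower, and the pyruvate list had 2 higher and 15 lower and the glycolysis list 4 higher and 2 lower. Neither had the heat shock and cold-inducible list (18 genes, 7 unadjusted) nor the immediate early genes (16 genes, 5 unadjusted), with 5 and 7 called lower in MI. The insulin, FoxO and atrophy list of 19 held 1 call, Cited4, and 4 at an unadjusted p under 0.05, and in MI 1 was called higher and 11 lower.

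**Figure D5:**
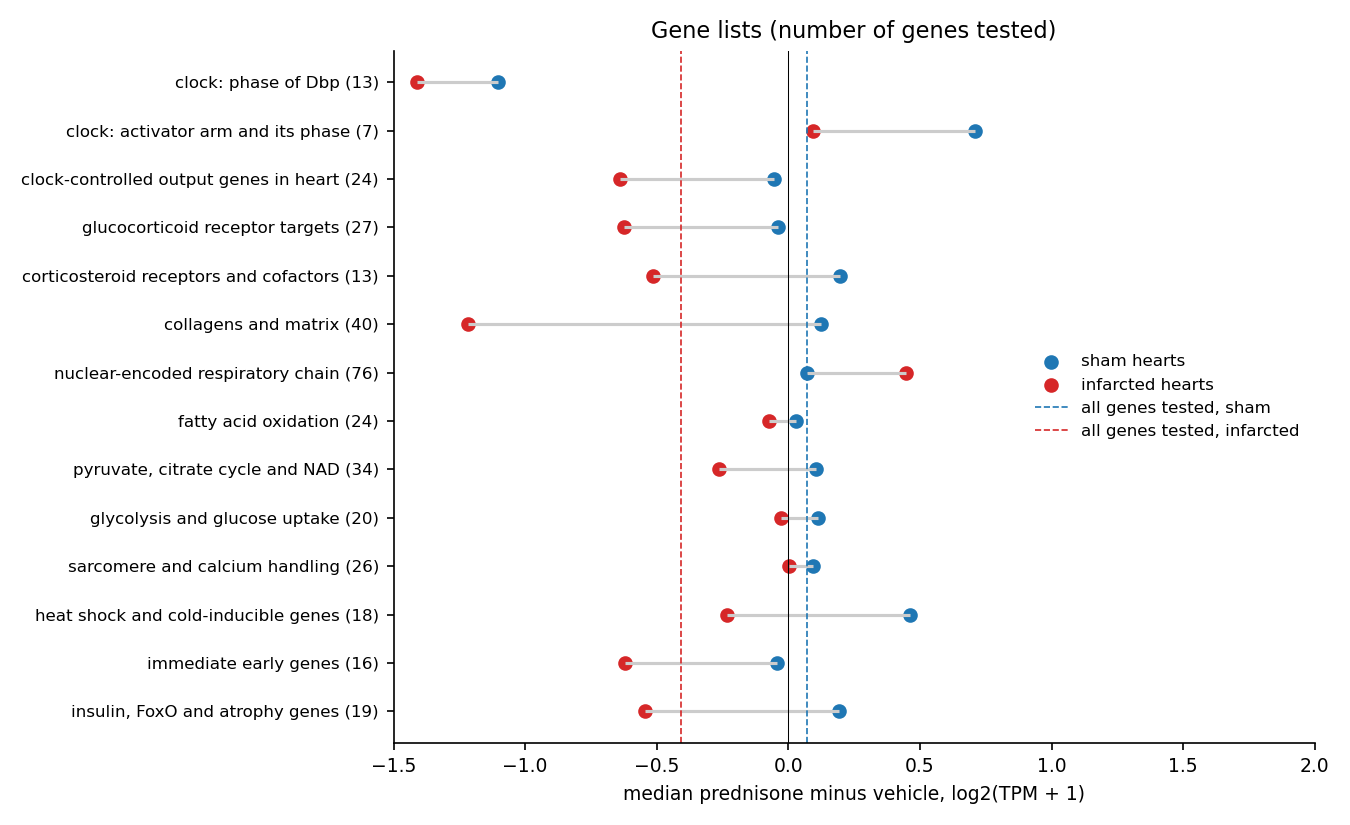
Median of prednisone minus vehicle on the log2(TPM + 1) scale over the genes of each list (rows, number tested in brackets), in sham (blue) and infarcted (red) hearts, with dashed lines at the medians of all genes, 0.07 and -0.41. The Dbp group lies at -1.10 and -1.41, on the same side of 0 in both, whereas the matrix list lies at 0.12 and -1.22.

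Markers of 13 cell types were read beside these results. None of their genes was called with surgery as covariate. An unadjusted p under 0.05 was found for 4 of 6 atrial, 4 of 8 cardiomyocyte and 4 of 8 fibroblast markers. It was found for 3 of 9 macrophage and monocyte, 2 of 5 mesothelial and 1 of 7 smooth muscle and pericyte markers. The other lists had 0, and the share of all genes was 14.7%. Fibroblast markers summed to 899 to 1147 TPM in sham vehicle, 956 to 1150.3 TPM in sham prednisone, 1592 to 1809 TPM in MI vehicle and 760.4 to 1266 TPM in MI prednisone. Macrophage and monocyte markers summed to 275 to 393, 316 to 422, 618 to 1349.7 and 309 to 562 TPM in the same order, and mesothelial markers to 27.0 to 63.3, 43.0 to 53.5, 79.9 to 133 and 18.2 to 41.6 TPM. Cardiomyocyte markers were higher in MI prednisone (34408 to 37481 TPM) than in MI vehicle (24808 to 29709 TPM), and in sham 30739 to 31824 TPM became 31808 to 37162 TPM. Atrial markers were also higher in MI prednisone (4387 to 6224 TPM) than in MI vehicle (2836 to 4161 TPM), and in sham they were at 2019 to 2731 TPM under prednisone and 865 to 2534 TPM under vehicle. The median log2 change of the 6 atrial markers was 0.50 in sham and 1.30 in MI, though their sums overlapped in sham. Medians also kept their sign for cardiomyocyte (0.17 and 0.31), neutrophil (0.39 and 0.27) and smooth muscle and pericyte (-0.02 and -0.62) markers. The same held for T and NK cell (-0.59 and -1.56) and B and plasma cell (-0.29 and -1.12) markers. The part of these lists in the shared changes was not tested. Smooth muscle and pericyte markers summed to 205 to 224 TPM in sham vehicle and 225 to 235 TPM in sham prednisone, and to 232 to 308 TPM and 183 to 224 TPM in MI. The endothelial, neutrophil, T and NK cell, B and plasma cell, erythroid, adipocyte and Schwann lists overlapped between treatments in both surgeries, B and plasma cell markers reaching 5655 TPM in 1 MI vehicle library and 866 TPM in 1 sham vehicle library. Fibroblast, macrophage and monocyte, and mesothelial sums moved mainly between the MI groups. The part of any marker list in the larger MI changes was not tested.

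Transcripts tested singly mostly had the direction of their gene, but some differed between the surgeries. The most abundant Tef transcript changed by -0.91 in sham and -2.41 in MI (limma interaction adjusted p = 0.0278), and the next by -0.95 and -0.27. A Vegfa transcript changed by 0.72 in sham and -1.34 in MI (limma interaction adjusted p = 0.00302). Of 27769 transcripts 19 were called (0.0684%), 3 higher and 16 lower, and 17 of the 19 belonged to 14 of the 23 genes. Of the 66 tested transcripts of the 23 genes, 62 had the sign of their gene, and the 4 others were 3 of Tef and 1 of Vegfa. All 4 transcripts of Dbp were lower, 3 of them called, and the main one went from a mean of 63.9 to 3.73 TPM in sham and from 58.5 to 2.66 TPM in MI. Usp2 had 2 called transcripts, with log2 changes of -0.79 and -1.82.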

How the data were processed

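RNA-seq of myocardium from 12 mice was analysed from the deposited table of TPM values (length-adjusted transcript shares), 105129 transcript rows that sum to 1000000 in each library. The authors' tools, per the submitters' processing notes, include Trimmomatic, HISAT2 and kallisto with the mm10 build, with no version or role. Libraries were stranded mRNA libraries, per the labels' protocols. Groups came from the sample titles.

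Rows sharing a symbol were added up, a gene was kept if 3 or more libraries reached 1 TPM, and log2(TPM + 1) was fitted with limma 3.58.1 in R 4.3.3 (eBayes with trend, two-sided, Benjamini-Hochberg over all genes). This scale understates changes of low genes. The main model held surgery and treatment over all 12 libraries. A model with a mean for each group gave the effects in sham and in MI and their difference. A gene moved the same way when it was called in the main model and had the same sign and an unadjusted p under 0.05 in both surgeries.

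Named genes were the up to 12 largest rises and falls among called, non-overlapping genes averaging 5 TPM or more, and the 2 clock lists. Genes of smallest p were added, up to 4 from the clock output and receptor target lists and 2 from each other list. Others, such as Spon2, Tmem171, Adam19 and Ypel2, were named after their values were seen. The members, the 14 pathway lists and the 13 marker lists were chosen with earlier results of these data known, so a list's direction is not independent evidence. Alternatives were median-ratio rescaling, no filter or a filter at 5 TPM, a pseudocount of 0.1, no trend, array weights, removal of mitochondrial rows, the replicate block and each library left out. A transcript-length correction (loess, span 0.5), the same with the block, and the most abundant transcript alone were added after seeing the data. The fits were also run on simulated data with changes alike in both surgeries. That run does not cover genes whose effect differs between the surgeries. Coordinates are from GENCODE M21 (GRCm38), whose identifiers matched 94.7% of rows, and lengths were found for 90.4% of tested genes. A gene is placed only where an identifier matched. Results of 2 genes are not reported here by name, and they remain in the counts.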

Additional observations from a re-analysis of the deposited data

Results flagged for a closer look

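Of the 57 genes named by rule or in the text, 19 had a prednisone effect that differed between the surgeries by limma's interaction test (adjusted p under 0.05, as did 21.3% of all genes). Each value below is the effect in MI minus that in sham on the log2 scale. Among clock genes it was -0.67 for Nr1d1, -0.91 for Nr1d2, -1.06 for Bhlhe41, -1.27 for Arntl, -1.36 for Clock and -0.996 for Rora. Tcap, the Z-disc protein gene, had 0.59, its fall being larger in sham, and the respiratory chain gene Cox7a1 had 0.63, with changes of 0.17 in sham and 0.79 in MI.

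Of genes tied to glucocorticoid action, Nr3c1, the receptor itself, had -1.33 (0.11 in sham and -1.22 in MI), Klf9 had -1.57, and H6pd, which supplies the cofactor of the steroid-reactivating enzyme, had -1.02. The FoxO gene Foxo3 had -0.81, the fatty acid transporter Cd36 had -1.16 and the acyl-CoA synthetase Acsl1 had -0.73. The matrix genes Thbs2 and Timp3 had -1.07 and -0.98. Among genes called in sham, Adam19 had -0.89, Tmem171 had -0.90 and Ypel2 had -0.70. After median-ratio rescaling 5 of the 19 differences passed (Arntl, Clock, Cox7a1, Nr3c1 and Tcap), and after length correction none of the 17 genes with a length did.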

How the results depend on the processing

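The 23 calls made with surgery as covariate became 38 with median-ratio rescaling, 13 with no filter on low genes, 81 with array weights, 12 with the replicate block, 37 with the transcript-length correction and 825 as an average in the 4-group model; libraries left out in turn gave 10 to 27. Those also moved the same way in both surgeries numbered 38, 13, 44, 12 and 37 in that order and 10 to 27 with libraries left out, and 10 when an adjusted p was asked of each surgery. The array weights did not converge and gave MI vehicle replicate 2 a weight of 0.000585. Of 15 genes called in sham, 12 were called in MI in the same direction. This became 6 of 12 with no filter, 27 of 319 with array weights and 6 of 7 with the block. It was 6 of 6 with the length correction and the block. With libraries left out it was 4 to 13, where 4 to 18 genes were called in sham. The 2797 differences between surgeries became 1323 with rescaling, 243 with the length correction, 110 with that and the block, and 1111 to 4520 with libraries left out. Clock changed sign to 0.0204 with rescaling, 0.32 with array weights and 0.16 with the length correction, with or without the block, and with the most abundant transcript Nr3c1 became 0.0800 and Pygm -0.23. The cause of these changes was not tested, apart from the model difference stated for the 825.

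Replicate numbers are shared between groups in the titles, but 18 same-numbered pairs deviated with a mean correlation of -0.0796 (from -0.58 to 0.28) and 1 of 12 libraries correlated best with its own number, so the numbers were not taken to pair mice. With 3 mice a group and no read depth, changes of genes near 1 TPM cannot be given a detection limit.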

Other observations

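Median-ratio rescaling called 21 genes that the TPM values did not, named here after their values were seen. The rises included Hsph1, a heat shock protein of the HSP110 family (0.88, limma adjusted p = 0.0322), and Manf, a secreted endoplasmic reticulum stress protein (0.62, limma adjusted p = 0.0183). Ppp1r3b, a glycogen-targeting subunit of protein phosphatase, was at 0.48 (limma adjusted p = 0.0395) and the matrix protein gene Spon2 at 1.33 (limma adjusted p = 0.00805). The falls included Star, the steroidogenic cholesterol transporter (-0.89, limma adjusted p = 0.0332), Csrnp1 (-1.25, limma adjusted p = 0.00814) and Pik3ip1, an inhibitor of PI3 kinase (-0.47, limma adjusted p = 0.0302). Of these 7 genes, Manf alone did not pass after the length correction (limma adjusted p = 0.0986).

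Outside the 23 genes, 2 single transcripts were called. A transcript of Txnip, an inhibitor of thioredoxin and glucose uptake, changed by -0.94 (limma adjusted p = 0.0386), and a transcript of Ptgds, a prostaglandin D synthase, changed by 0.89 (limma adjusted p = 0.0488).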
